A study of Mus musculus with 24 samples.

Results

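Ribosomal proteins are the protein part of the machines that translate messenger RNA. Cytosolic ribosomes, whose proteins carry the symbols Rpl (large subunit) and Rps (small subunit), translate the messenger RNA of nuclear genes. Mitochondria keep a separate ribosome, whose proteins (Mrpl and Mrps) are also encoded in the nucleus, made in the cytosol and imported, and which translates the few respiratory chain subunits encoded by mitochondrial DNA. Translation of both kinds is costly for neurons, which depend on local protein synthesis and on respiration.

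The genes described here were chosen by symbol alone: Rpl or Rps followed by a number, leaving out pseudogenes and the Rps6k kinases, or Mrpl or Mrps followed by a number. Of 18194 genes with a probe set of 1 symbol, 123 matched, 47 cytosolic and 76 mitochondrial. All 76 mitochondrial genes and 43 of the 47 cytosolic genes exceeded the median intensity of the array on 2 or more arrays and were tested. Rps16, Rpl37, Rpl39 and Rpl3l did not. The mitochondrial set held 76 of the 78 coding genes that RefSeq lists under such symbols. The cytosolic set was less complete: RefSeq lists 85 coding genes, of which 39 were not members, 30 of these being only on probe sets with several gene symbols. One symbol that matched the rule, Rps19bp1, names a protein that binds a ribosomal protein and is not itself part of the ribosome.

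Messenger RNA was measured on 24 Affymetrix mouse expression arrays. The neurons came from littermates with intact Npas4 (WT) or without it (KO), on the C57Bl/6 background. Npas4 is a transcription factor gene that neuronal activity switches on, and the study looked for genes under its control in inhibitory and in excitatory neurons. Cells were taken at embryonic day 14 from the medial ganglionic eminence (MGE), the source of cortical inhibitory neurons, or from the cortex (CTX), and were kept for 10 days in culture. All cultures, including the 0 h controls, were silenced overnight with the sodium channel blocker TTX and the NMDA receptor antagonist AP-5 before 0, 1 or 6 h in 55 mM KCl, which depolarizes the membrane. The 12 groups, each with 2 arrays, were MGE WT, MGE KO, CTX WT and CTX KO at 0, 1 and 6 h. The labels do not say how the KO allele was built, nor whether the arrays of a group came from separate cultures or animals, so the p-values measure the spread between these arrays, which may be technical.

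The deposited intensities had array medians of 115 to 121. Arrays of the same group correlated at 0.951 to 0.992 across genes, lowest in MGE WT at 0 h, where 1507 genes lay over 2-fold apart against 116 to 980 in the other groups. Npas4 itself, the targeted gene, lay between 11.20 and 12.04 on the log2 scale in the 4 WT arrays at 1 h and between 6.80 and 7.35 in the 4 KO arrays. The mean log2 level of 11 inhibitory neuron markers was 11.16 to 11.81 in the 12 MGE arrays and 8.83 to 9.60 in the 12 CTX arrays. For 9 excitatory markers it was 5.69 to 6.31 in MGE, with at most 2 above the array median, and 11.06 to 11.48 in CTX. Astrocyte markers (9.01 to 9.48 in MGE, 8.20 to 9.63 in CTX, 8 genes), oligodendrocyte markers (8.05 to 8.51 and 7.15 to 7.66, 7 genes), microglial markers (6.42 to 7.68 and 5.99 to 6.63, 8 genes), vascular and fibroblast markers (7.11 to 7.69 and 6.56 to 8.21, 8 genes) and progenitor or cycling markers (8.43 to 9.34 and 7.20 to 8.57, 9 genes) were also detected in part. In such mixed cultures fewer cells of a type and less RNA per cell cannot be told apart.

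After 6 h of KCl, many mitochondrial ribosomal protein genes fell in both cell types and both genotypes, while nearly all cytosolic ones did not pass the test. In CTX WT, 34 of 76 mitochondrial genes fell and 2 rose, with a median log2 change of -0.41. In CTX KO, 41 fell and 1 rose, with a median of -0.44. In MGE WT, 24 fell and 0 rose (median -0.29), and in MGE KO 15 fell and 0 rose (median -0.25). Of the 43 cytosolic genes, 2 rose and 1 fell in CTX WT, 1 rose and 1 fell in CTX KO, and 1 fell in each MGE response, with medians between -0.00 and 0.03. With cyclic loess between arrays the cytosolic medians were 0.01 and -0.00 in CTX WT and KO and -0.12 and -0.05 in MGE WT and KO. The mitochondrial medians were then -0.32, -0.38, -0.29 and -0.22 in the same order, with 28, 35, 20 and 14 genes lower and 2, 1, 0 and 0 higher. The all-gene medians with cyclic loess were -0.05, -0.06, -0.01 and -0.02. The cytosolic count in CTX WT and KO was 5 and 6 with the mean over the probe sets of a gene, and 5 and 5 without _x_at and _s_at probe sets. With the replicate number as a block it was 4 in CTX KO and 2 in MGE WT. The background over all 12378 tested genes (limma, Benjamini-Hochberg adjusted p under 0.05) was 35.2% called in CTX WT (24.8% lower, 10.5% higher), 36.2% in CTX KO (24.9% lower, 11.3% higher), 25.3% in MGE WT (15.7% lower, 9.53% higher) and 17.1% in MGE KO (12.3% lower, 4.84% higher). The all-gene medians were -0.10, -0.11, -0.05 and -0.07 in that order. Against this background the share of falling mitochondrial genes was above the all-gene share in each response, and the share of cytosolic genes called was below it. Cell type markers also moved at 6 h. In CTX WT and KO, 2 and 3 of 11 inhibitory markers rose, 2 and 3 of 8 progenitor or cycling markers rose, 1 and 1 of 7 astrocyte markers rose, and 2 and 2 of 9 excitatory markers fell while 1 and 1 rose. Of 5 oligodendrocyte markers, 1 (Mbp) fell in CTX KO, and it read 0.59 without _x_at and _s_at probe sets. In MGE, 2 and 1 of 11 inhibitory markers rose in WT and KO and 1 of 5 oligodendrocyte markers fell in WT. The log2 difference between 3′ and 5′ probe sets of Actb, a sign of RNA integrity, was 0.45 to 0.53 in the 4 CTX arrays at 6 h and 0.58 to 0.66 in those at 0 h, and that of Gapdh was 0.54 to 0.58 and 0.62 to 0.70. In MGE these ranges overlapped, at 0.44 to 0.66 and 0.44 to 0.54 for Actb and 0.56 to 0.64 and 0.62 to 0.68 for Gapdh. The part of the markers and of the 3′ to 5′ differences in the result was not tested.

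**Figure D1:**
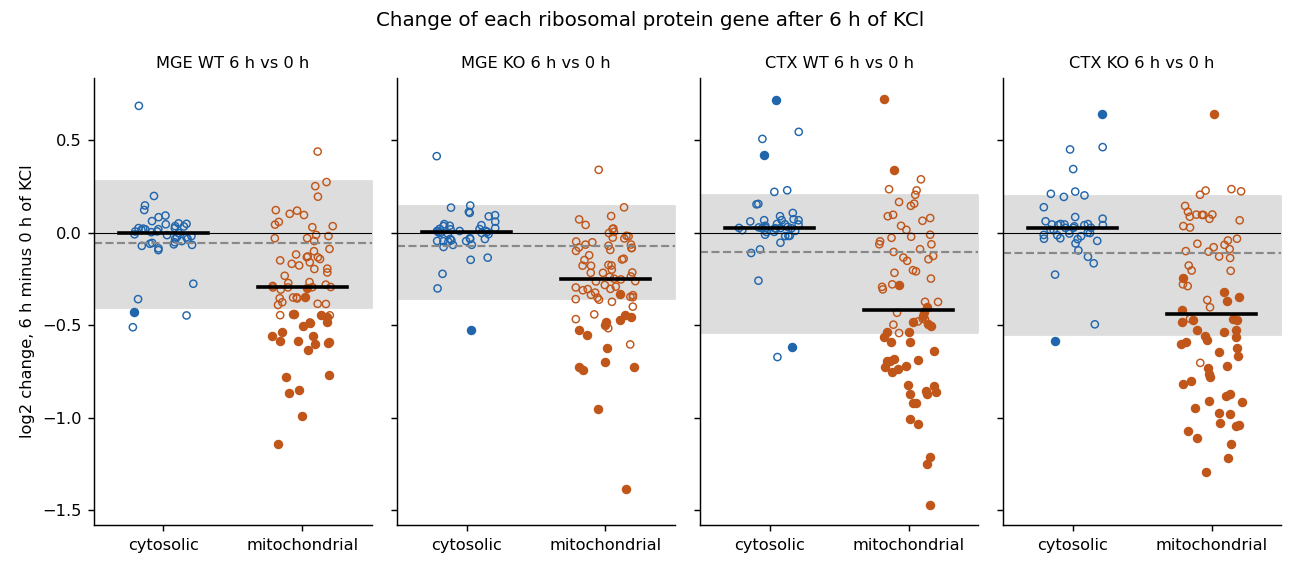
Log2 change between 0 and 6 h of KCl for each tested cytosolic (blue, 43 genes) and mitochondrial (orange, 76 genes) ribosomal protein gene in the 4 responses, each from 2 arrays against 2. Filled points are called by limma, black bars are medians, the grey band and dashed line are the quartiles and median of all 12378 tested genes: the cytosolic medians lie between -0.00 and 0.03 and the mitochondrial medians between -0.25 and -0.44.

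The mitochondrial counts and medians depended on single arrays. The share of all genes called in the fits that left out an array is not given here, so these counts have no background beside them. In MGE WT, 40 genes (37 lower) were called without the first 0 h array, 3 without the second 0 h array and 2 without the first 6 h array, with medians of -0.38, -0.21 and -0.24. In MGE KO the count dropped to 4 without the first 0 h array, 5 without the first 6 h array and 7 without the second 6 h array, with medians of -0.20, -0.27 and -0.26. In CTX WT it was 23 without the first 0 h array and in CTX KO 25 without the first 0 h array, with medians of -0.26 and -0.37. Values below 0 were found for 64 of 76 genes in MGE WT, 68 in MGE KO, 61 in CTX WT and 60 in CTX KO. Of all 12378 tested genes, 6799, 7279, 7298 and 7360 were below 0 in that order.

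Genes of both subunits were among those that fell. Of 47 large subunit (Mrpl) genes, 15 fell in MGE WT, 11 in MGE KO, 21 in CTX WT and 27 in CTX KO. Of 29 small subunit (Mrps) genes, 9, 4, 13 and 14 fell. Of all genes 15.7%, 12.3%, 24.8% and 24.9% fell, and the 4 Mrps genes in MGE KO, 13.8% of the 29, were close to that share. Genes whose number matches a bacterial ribosomal protein (43 genes, up to number 36 in the large and 21 in the small subunit) had medians of -0.29, -0.26, -0.43 and -0.46, and the 33 genes with higher numbers, largely proteins that bacteria lack, had -0.29, -0.24, -0.37 and -0.42.

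A set of 12 mitochondrial genes fell in all 4 responses at 6 h: Mrpl2, Mrpl10, Mrpl14, Mrpl21, Mrpl36, Mrpl38, Mrpl40, Mrpl41, Mrpl55, Mrps12, Mrps16 and Mrps17. This was 15.8% of the 76 mitochondrial genes, beside 7.24% of all tested genes and 0 of 43 cytosolic genes, and 29 mitochondrial and 39 cytosolic genes were called in none of the responses. The WT and KO responses of a cell type share no arrays. In CTX, 32 falling mitochondrial genes were shared, 94.1% of those in WT and 78.0% of those in KO, and in MGE 14 were shared, 58.3% and 93.3%. Over all genes the shares were 88.4% and 87.7% in CTX and 63.8% and 81.8% in MGE. Between cell types, 19 falling genes were shared in WT (79.2% of the MGE set, 55.9% of the CTX set) and 15 in KO (100% and 36.6%), beside all-gene shares of 62.9% and 40.0% in WT and 76.1% and 37.4% in KO.

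**Figure D2:**
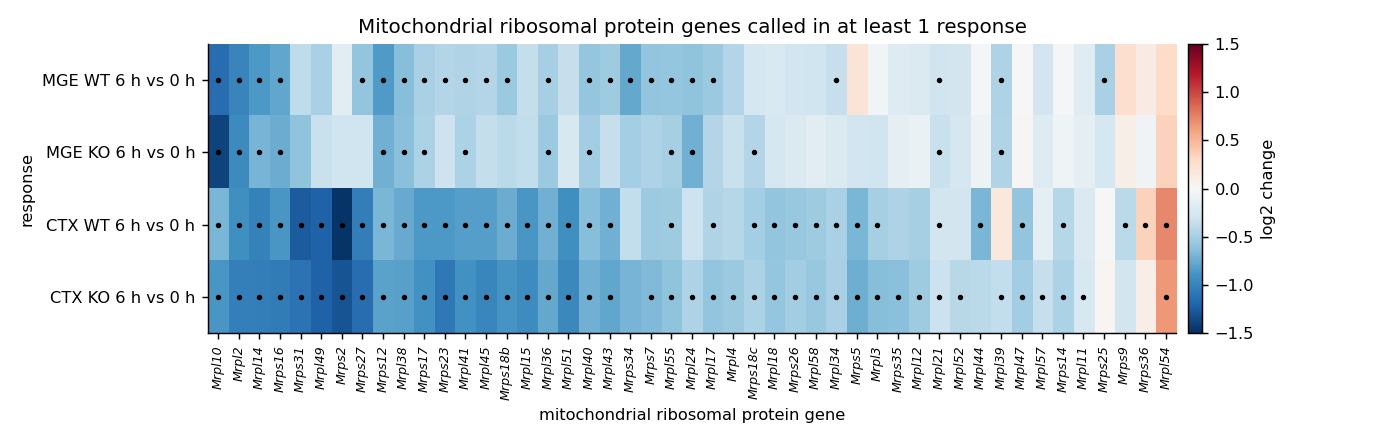
Log2 change after 6 h of KCl, as colour (blue lower, red higher), for the 47 mitochondrial ribosomal protein genes called in at least 1 of the 4 responses, ordered by their mean change. Black dots mark limma calls: Mrpl10, Mrpl2 and Mrpl14 are blue in all 4 rows, Mrps31, Mrpl49 and Mrps2 are called in CTX and not in MGE, and Mrpl54 is red in both CTX rows.

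Mrpl10, a large subunit protein whose bacterial counterpart anchors the stalk that receives translation factors, fell most in MGE cultures. The MGE WT arrays read 9.65 and 9.46 before KCl (log2 intensity), 9.29 and 9.70 after 1 h, and 8.40 and 8.41 after 6 h. The MGE KO arrays read 9.63 and 9.64, 9.61 and 9.59, and 8.15 and 8.36 at these times. Between 0 and 6 h the CTX WT arrays went from 9.86 and 9.80 to 8.98 and 9.31, and the CTX KO arrays from 9.75 and 9.49 to 8.65 and 8.85. The 6 h arrays lay below all 0 h arrays of their own culture in each of the 4 cases, while the 1 h arrays overlapped or adjoined them. The changes were -1.14, -1.39, -0.69 and -0.87 (SE 0.16), with adjusted p of 0.000185, 4.36e-05, 0.00317 and 0.000505 by limma.

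Mrpl14, a large subunit protein at the interface with the small subunit, also fell in every culture. In CTX WT it stood at 9.63 and 9.48 before KCl, 9.50 and 9.21 after 1 h, and 8.45 and 8.64 after 6 h. The CTX KO arrays stood at 9.48 and 9.32, 9.40 and 9.41, and 8.33 and 8.39. The MGE WT arrays went from 10.13 and 10.49 to 9.40 and 9.49 between 0 and 6 h, and those of MGE KO from 10.11 and 9.95 to 9.35 and 9.32. The groups at 0 and 6 h did not overlap in any culture. The changes were -1.01 and -1.04 in CTX WT and KO and -0.86 and -0.70 in MGE WT and KO (SE 0.14; adjusted p by limma 7.3e-05, 5.4e-05, 0.00073 and 0.0035).

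Mrps12, which lies at the decoding centre of the small subunit, fell in each culture as well. Its MGE WT arrays read 11.90 and 12.49 before KCl and 11.17 and 11.53 after 6 h, and its MGE KO arrays 11.90 and 11.67, then 10.98 and 11.13. The CTX WT arrays went from 11.17 and 10.96 to 10.36 and 10.39, and the CTX KO arrays from 11.13 and 10.98 to 10.33 and 10.17. The 0 h and 6 h arrays did not overlap in any of the cultures, and the first and second MGE WT arrays at 0 h lay further apart than any other pair. The changes were -0.85, -0.73, -0.69 and -0.80 (SE 0.18; adjusted p 0.0044, 0.014, 0.0091 and 0.0033 by limma). In MGE the Mrps12 call was lost without the first 6 h or second 0 h WT array, and without the first 0 h or first 6 h KO array.

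The other genes of the 12 changed by -0.28 to -1.04. Mrpl2, a protein near the catalytic centre of the large subunit, fell in MGE WT, MGE KO, CTX WT and CTX KO, with changes of -0.99, -0.95, -0.92 and -1.03. Mrps16, a small subunit protein, changed by -0.78, -0.74, -0.87 and -1.04 in that order, and Mrps17, another, by -0.48, -0.48, -0.86 and -0.91. Mrpl38 changed by -0.64, -0.62, -0.75 and -0.82 on its brightest probe set. Its 2 dimmer probe sets changed by 0.17 and -0.16 in MGE WT, and without probe sets of the kinds that can match several transcripts Mrpl38 read 0.17 in MGE WT and 0.35 in MGE KO, so its direction in MGE depended on the probe set. Mrpl21 had the smallest changes of the 12, -0.30 and -0.33 in MGE and -0.28 and -0.32 in CTX. Mrpl21, Mrpl36, Mrpl40, Mrpl41 and Mrpl55 are named only because they belong to the 12, after their values were seen, as are Mrpl10, Mrps12 and Mrpl38 in CTX and Mrps17 in 3 of the 4 responses. In all 48 combinations of these 12 genes and 4 responses the 0 h and 6 h arrays did not overlap. The genes were picked by their calls on these same arrays, so this adds no separate support. Of all 12378 tested genes, the arrays did not overlap for 7098 in MGE WT, 7366 in MGE KO, 7960 in CTX WT and 8758 in CTX KO.

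**Figure D3:**
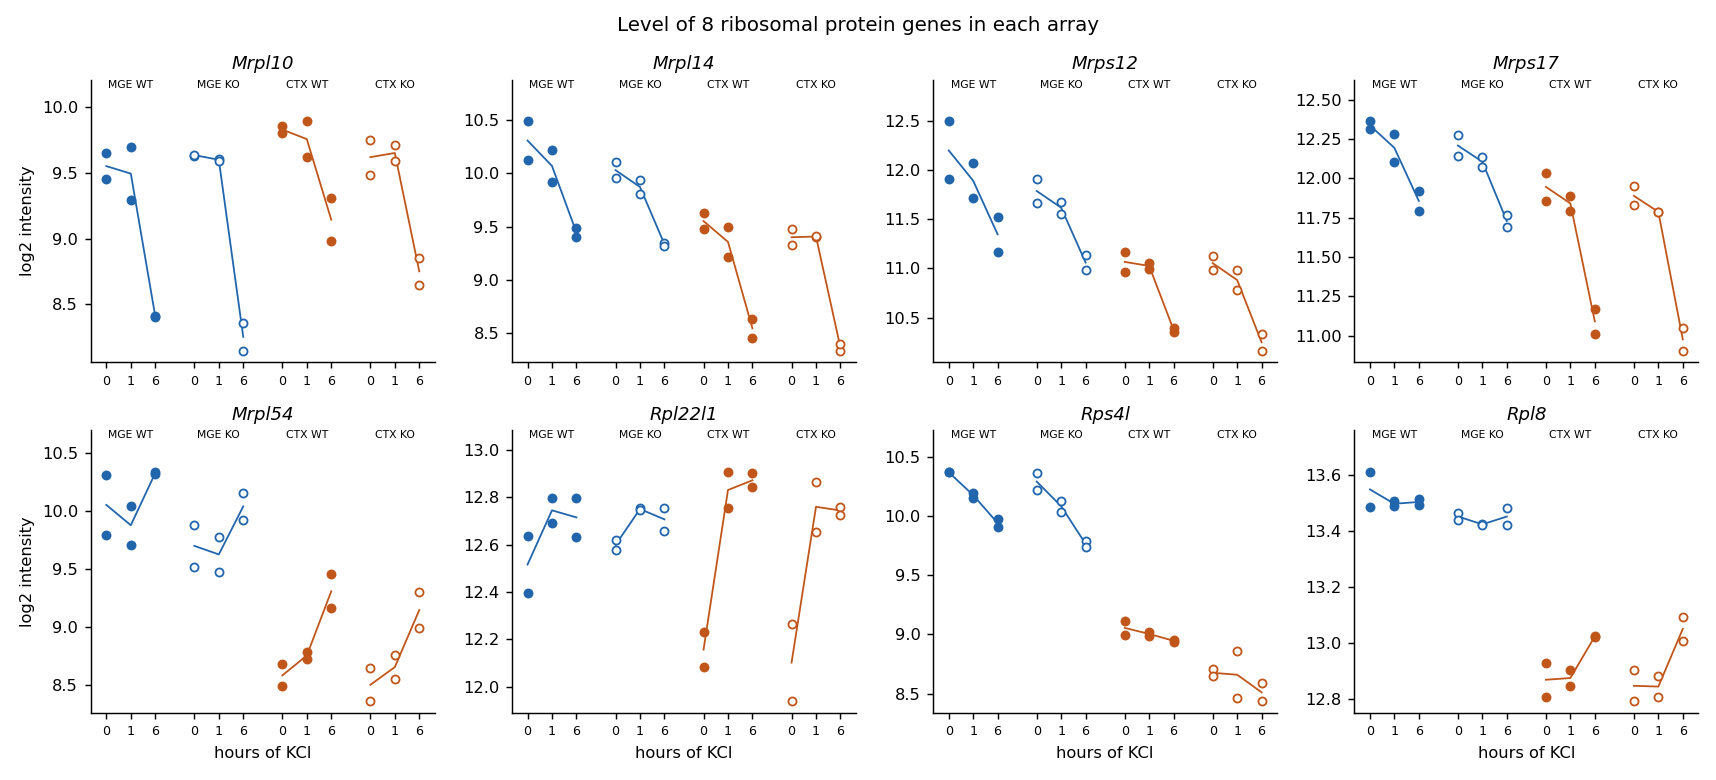
Log2 intensity of 8 ribosomal protein genes in each of the 24 arrays (points; filled WT, open KO; blue MGE, orange CTX), with lines through the means of 2 arrays at 0, 1 and 6 h of KCl; the time axis is not to scale. Mrpl10, Mrpl14, Mrps12 and Mrps17 are lowest at 6 h in every culture, Mrpl54 and Rpl22l1 are higher at 6 h than at 0 h in CTX, Rps4l falls in MGE, and Rpl8 lies above 13.4 in all MGE arrays and below 13.1 in all CTX arrays.

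The start regions of these genes can be set beside the responses, because a group of nuclear genes for mitochondrial proteins is known to use sites for the transcription factors NRF1, YY1 and the ETS family. RefSeq promoters (GRCm38.p6, 250 bases before to 50 after the start) were at hand for 11 of the 12 genes. The windows below run from 100 bases before to 20 after the start, 5′ to 3′ on the gene's strand, with a motif match in capitals on either strand. They show the gene with the deepest fall in MGE, which has no match, and then one gene each for the NRF1, ETS and YY1 letters, with Mrps12 as a second ETS case.
Mrpl10 (chr11:97041482-97041601, plus strand): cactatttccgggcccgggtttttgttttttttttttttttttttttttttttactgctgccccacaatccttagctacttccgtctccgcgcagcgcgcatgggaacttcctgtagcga
Mrpl14 (chr17:45686249-45686368, plus strand, NRF1): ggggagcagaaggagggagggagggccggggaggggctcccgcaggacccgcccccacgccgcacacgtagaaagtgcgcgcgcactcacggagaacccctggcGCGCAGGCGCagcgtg
Mrpl21 (chr19:3282942-3283061, plus strand, ETS): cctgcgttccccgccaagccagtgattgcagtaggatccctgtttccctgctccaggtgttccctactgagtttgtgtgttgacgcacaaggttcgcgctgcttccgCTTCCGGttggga
Mrpl36 (chr13:73330909-73331028, plus strand, YY1): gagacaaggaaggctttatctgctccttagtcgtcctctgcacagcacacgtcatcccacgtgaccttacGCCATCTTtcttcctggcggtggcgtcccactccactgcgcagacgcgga
Mrps12 (chr7:28741802-28741921, minus strand, ETS): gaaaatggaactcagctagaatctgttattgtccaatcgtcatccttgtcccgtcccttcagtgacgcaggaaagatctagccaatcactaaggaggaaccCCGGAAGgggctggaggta

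The letters searched were CCGGAAG for ETS factors, GCGC and TGCGC with any 1 base between them for NRF1, and AAGATGGC for YY1, on both strands of the 300 bases. None of these motifs contains another. At least 1 of the 3 occurred in 56.2% of 73 mitochondrial promoters (67 genes), in 55.1% of 49 cytosolic promoters (41 genes) and in 14.7% of all 32851 promoters. ETS letters were in 34.2%, 38.8% and 8.86%, NRF1 letters in 16.4%, 10.2% and 4.6%, and YY1 letters in 16.4%, 8.16% and 2.75%. Of the 14 promoters of the genes that fell in all responses, 35.7% had a match, 21.4% to ETS, 7.14% to NRF1 and 14.3% to YY1. These 14 belong to 11 genes and are not all separate: 3 are overlapping windows of Mrpl2 without a match, and 2 belong to Mrps16. The genes with a match were Mrpl14, Mrpl21, Mrpl36, Mrps12 and Mrps16. A C at the start followed by 4 pyrimidines, the beginning of the 5′ terminal tract by which cytosolic ribosomal messenger RNAs are regulated in translation, was found in 14.3% of cytosolic, 0 of 73 mitochondrial and 2.51% of all promoters. The letters CTTTCC or TCTTTC within 20 bases of the start were in 18.4%, 1.37% and 3.05%. A match is a description of the letters, and binding was not measured.

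Other mitochondrial genes had their largest falls in CTX. Mrpl49 changed by -1.21 in CTX WT and -1.22 in CTX KO (SE 0.23), against -0.48 and -0.34 in MGE WT and KO, which were not called. Mrpl51 changed by -0.92 and -0.97 in CTX (SE 0.12) and by -0.35 and -0.24, not called, in MGE. Mrps23 changed by -0.86 and -1.07 (SE 0.15) and Mrps27 by -1.04 and -1.14 (SE 0.19) in CTX, and both also fell in MGE WT, by 0.44 and 0.59. Whether the response differed between cell types was tested for each gene, as given with the interactions. Mrps2, a small subunit protein, and Mrps31 showed the largest CTX falls among small subunit genes, but their 6 h arrays disagreed. In CTX WT, Mrps2 read 11.01 and 10.94 before KCl and 10.37 and 8.64 after 6 h, and in CTX KO 10.99 and 10.98, then 10.13 and 9.24. Mrps31 went from 11.41 and 11.13 to 10.46 and 9.58 in CTX WT and from 11.32 and 11.29 to 10.77 and 9.63 in CTX KO. The second array at 6 h was the lower in all 4 cases. The changes were -1.47 and -1.29 for Mrps2 (SE 0.37; adjusted p 0.0068 and 0.014 by limma) and -1.25 and -1.11 for Mrps31 (SE 0.29; adjusted p 0.0039 and 0.0080). Without the second 6 h array, the values were -0.60 and -0.85 for Mrps2 and -0.81 and -0.54 for Mrps31, none of them called, and the Mrps2 call in CTX KO was also lost without either 0 h array.

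A pair of mitochondrial genes moved the other way in CTX. Mrpl54, a large subunit protein without a bacterial counterpart, read 8.68 and 8.49 before KCl, 8.79 and 8.72 after 1 h and 9.46 and 9.16 after 6 h in CTX WT. The CTX KO arrays read 8.64 and 8.36, 8.55 and 8.76, and 9.30 and 8.99. All 6 h arrays lay above the 0 h and 1 h arrays, and the rise was 0.72 and 0.65 (SE 0.20; adjusted p 0.011 and 0.020 by limma). In both genotypes the call was lost without the first 6 h array or the second 0 h array. Mrps36, a protein first assigned to the small subunit and later to the oxoglutarate dehydrogenase complex, rose by 0.34 in CTX WT (SE 0.10, adjusted p 0.014), a call lost without the same arrays of CTX WT. The members of the Mrps18 family, which occupy alternative places in the small and large subunits, did not all pass: Mrps18b changed by -0.74 and -0.88 in CTX WT and KO and by -0.56 in MGE WT, Mrps18c changed by -0.51 and -0.47 in CTX WT and KO and by -0.44 in MGE KO, and Mrps18a, at -0.06 and -0.06 in CTX and -0.13 and -0.05 in MGE, was not called.

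Among cytosolic genes, Rpl22l1 was called already at 1 h. It is the paralog of Rpl22, a large subunit protein that binds RNA. The CTX WT arrays read 12.23 and 12.08 before KCl, 12.91 and 12.76 after 1 h, and 12.84 and 12.90 after 6 h. The CTX KO arrays read 12.26 and 11.94, 12.87 and 12.65, and 12.76 and 12.73 at these times. The 1 h and 6 h arrays all lay above the 0 h arrays. The MGE WT arrays read 12.64 and 12.40, 12.80 and 12.69, and 12.80 and 12.63, so that at 0 h they lay above the CTX arrays before KCl and below all CTX arrays after it. The rise in CTX WT and KO was 0.68 and 0.66 after 1 h and 0.72 and 0.64 after 6 h (SE 0.12; adjusted p 0.014, 0.015, 0.00045 and 0.00096 by limma). At 1 h this call was lost without any of 3 arrays in WT (both 0 h arrays and the first 1 h array) and without 2 in KO (the second 0 h and the first 1 h array). Rpl22 itself changed by 0.23 and 0.22 in CTX at 6 h without a call.

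At 1 h, 0 of 76 mitochondrial genes were called in any of the 4 responses, and Rpl22l1 in both CTX responses was the only cytosolic call. The background at 1 h was 0.574% of genes in MGE WT (0.388% higher, 0.186% lower), 0.444% in MGE KO (0.323% and 0.121%), 0.864% in CTX WT (0.622% and 0.242%) and 1.10% in CTX KO (0.671% and 0.428%). At an unadjusted p under 0.05, 0, 0, 1 and 0 mitochondrial genes passed. The mitochondrial medians at 1 h were -0.14, -0.09, -0.05 and -0.08, with 66, 69, 55 and 58 of 76 values below 0. Of all 12378 tested genes, 6330, 6753, 6669 and 7053 were below 0. Without the first MGE WT array at 0 h, some members were called in MGE WT at 1 h, and the share of all genes called in that fit is not given here.

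The other cytosolic calls at 6 h were few, and their count in MGE WT was 4 without the first 0 h array and 0 without the second 0 h or first 6 h array. Rps4l, an autosomal relative of the X-linked Rps4x, read 10.37 and 10.37 before KCl, 10.20 and 10.15 after 1 h and 9.91 and 9.97 after 6 h in MGE WT. The MGE KO arrays read 10.36 and 10.22, 10.13 and 10.03, and 9.79 and 9.74. The arrays of the 3 times did not overlap in either genotype, and the 6 h change was -0.43 and -0.53 (SE 0.12; adjusted p 0.015 and 0.0056 by limma). Rps4x changed by -0.00 and 0.06. In MGE WT the Rps4l call was lost without either the first 6 h array or the second 0 h array, and in MGE KO without the first 0 h array. Rps27 rose by 0.42 in CTX WT (SE 0.15, adjusted p 0.045), with 6 h arrays at 8.68 and 9.24 after 8.63 and 8.45. Without the second 6 h array it read 0.14, and the call was also lost without either 0 h array. Its paralog Rps27l changed by -0.26 without a call. Rps19bp1 fell by 0.62 and 0.58 in CTX WT and KO (SE 0.16, adjusted p 0.0088 and 0.012), calls lost without the first 0 h array in either genotype and without the second 6 h array in KO. Rpl7l1 read -0.67 and -0.49 in CTX, Rpl39l 0.55 and 0.19, Rpl7 -0.02 and -0.03 and Rpl13a 0.07 and 0.05, none of them called. Rpl39l was dim, with a mean log2 level of 6.02 and only 2 of 24 arrays above the array median.

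Most cytosolic probe sets lay near the top of the measured range, where values spread less for all genes. Of 595 tested genes with a mean log2 level over 13, 32 were cytosolic and 1 was mitochondrial, and 12.3% of the 595 were called at 6 h in CTX WT, against 0 of these 32 cytosolic genes. Between 11 and 13, where 50 mitochondrial and 3 cytosolic genes lay, 32.3% of 3660 genes and 21 of the 50 mitochondrial genes were called. The median standard error was 0.08 for cytosolic and 0.15 for mitochondrial genes, which gives 95% intervals of about ±0.17 and ±0.32 around a 6 h change. In CTX WT the whole interval lay within ±1 log2 for 40 of 43 cytosolic and 54 of 76 mitochondrial genes. A further 100 cytosolic probe sets that carry several symbols (44 genes) were tested separately and added after the data were seen. They gave 11 higher and 2 lower in CTX WT at 6 h, 10 and 2 in CTX KO, 2 and 0 in MGE WT and 0 and 0 in MGE KO. All 587 probe sets with several symbols gave 86 and 67, 89 and 69, 59 and 65, and 28 and 54 in that order. The cytosolic share called was below theirs in each response.

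The wider translation machinery was described by lists of named genes. Of 21 mitochondrial translation factors and tRNA synthetases, 9 fell in MGE WT, 7 in MGE KO, 8 in CTX WT and 6 in CTX KO, and 1 rose in MGE WT, with medians of -0.45, -0.47, -0.50 and -0.64 in this order, which holds for the values that follow. Of all genes 15.7%, 12.3%, 24.8% and 24.9% fell, and in CTX KO the share of this list called, 28.6%, was near that 24.9%. Tfb1m, the methyltransferase that modifies the RNA of the mitochondrial small subunit, changed by -1.89, -1.56, -1.44 and -1.35 (SE 0.18), and Iars2, the mitochondrial isoleucyl-tRNA synthetase, by -1.03, -1.04, -1.11 and -1.46 (SE 0.17). Ptcd3, a small subunit protein with another kind of symbol, changed by -0.71, -0.59, -0.89 and -0.93 (SE 0.15), and Dap3, another, fell by 0.32 in MGE KO and 0.33 in CTX KO. Of 27 nuclear genes for respiratory chain subunits, 0, 0, 1 and 2 fell and 0 rose, beside the same all-gene shares, with medians of -0.03, -0.02, -0.02 and -0.01. Ndufs1 changed by -0.38 and -0.35 in CTX WT and KO and Ndufv2 by -0.28 in CTX KO. The mean log2 level of these 27 genes was 12.69 to 13.24 on the arrays. Of all tested genes with a mean level over 13, 12.3% were called in CTX WT at 6 h and 7.06% fell. The part of the level in this count was not tested. Of 17 cytosolic translation factors, 4, 2, 2 and 2 rose and 0 fell. Of all genes 9.53%, 4.84%, 10.5% and 11.3% rose, and the 2 of 17 in each CTX response were near that share. Eif4ebp1, an inhibitor of cap-dependent initiation, rose by 2.13 and 1.89 in MGE WT and KO. The other rise in MGE KO was Eif4ebp2, by 0.63. In CTX WT and KO the 2 were Eif4ebp2, by 1.21 and 1.32, and Pabpc1, by 0.29 and 0.27. With the mean over its probe sets, Eif4ebp2 read below 0 in CTX. Of 30 ribosome assembly genes, 0, 0, 3 and 4 rose and 5, 3, 5 and 5 fell, and the share called (16.7%, 10.0%, 26.7% and 30.0%) was below the all-gene share of 25.3%, 17.1%, 35.2% and 36.2% in each response. Fbl, the methyltransferase of nucleolar RNA, rose by 0.88 and 0.78 in CTX WT and KO, and Polr1a, the largest subunit of RNA polymerase I, fell by 0.94 in MGE WT.

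Among 14 tested regulators of these genes, Nrf1 rose in all 4 responses. It encodes nuclear respiratory factor 1, an activator of nuclear genes for mitochondrial proteins. The MGE WT arrays read 8.13 and 8.60 before KCl, 8.69 and 8.46 after 1 h and 10.42 and 9.92 after 6 h. The CTX WT arrays read 7.73 and 7.38, 8.04 and 7.92, and 10.83 and 10.36, and the CTX KO arrays 7.48 and 7.57, 8.05 and 7.94, and 10.59 and 10.39. The 6 h arrays lay above all earlier arrays. The rises were 1.80 and 2.25 in MGE WT and KO and 3.03 and 2.96 in CTX WT and KO (SE 0.22; adjusted p 8.15e-05, 1.31e-05, 3.35e-07 and 3.34e-07 by limma). Tfam, the factor that packages and transcribes mitochondrial DNA, changed by -0.97 in MGE KO, -1.61 in CTX WT and -1.80 in CTX KO (SE 0.12). In MGE WT, where it is named after its values were seen, Tfam went from 11.66 and 11.49 to 10.69 and 10.68, a fall of 0.89. With the mean over its probe sets the MGE KO change of Tfam was -0.46 and not called. Other called regulators went in both directions. Gabpa, Rheb and Myc rose by 1.54, 1.21 and 1.10 in MGE WT. In MGE KO Ppargc1b rose by 1.05 and Mtor changed by -0.53. Rheb rose by 0.80 and Tfb2m changed by -0.66 in CTX WT, and Myc and Ppargc1b changed by -1.29 and -0.87 in CTX KO. The 6 h change differed between cell types (MGE minus CTX) for Tfam, by 0.72 in WT and 0.82 in KO, and for Ppargc1b, by 1.29 and 1.92. In WT it also differed for Myc (1.89) and Nrf1 (-1.23). The Nrf1 call was lost without the second MGE array at 0 or 6 h or the second CTX array at 0 h.

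**Figure D4:**
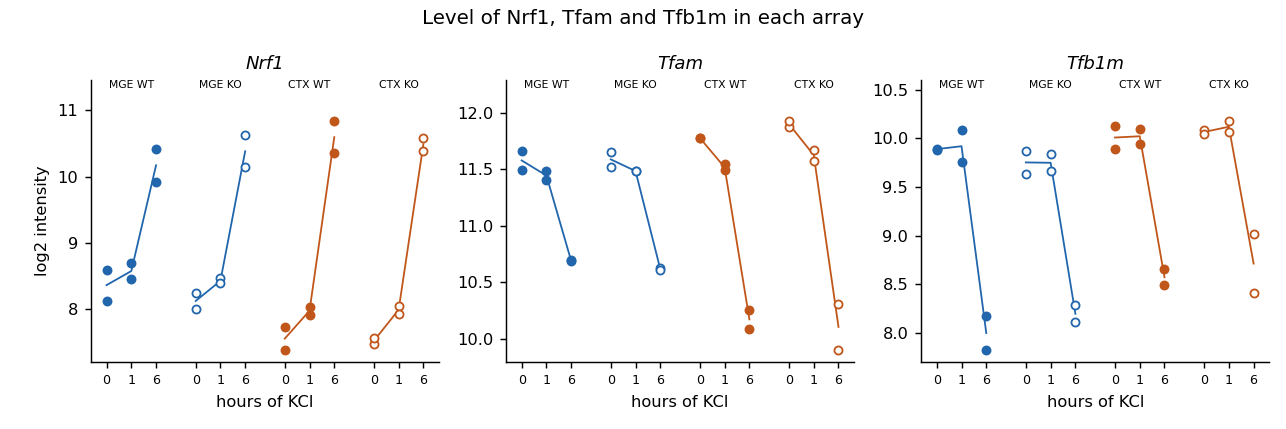
Log2 intensity of Nrf1, Tfam and Tfb1m in each of the 24 arrays (points; filled WT, open KO; blue MGE, orange CTX), with lines through the means of 2 arrays; the time axis, 0, 1 and 6 h of KCl, is not to scale. Nrf1 lies above 9.9 in every 6 h array and below 8.7 in every earlier one, and Tfam and Tfb1m are lowest at 6 h in every culture.

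In silenced cultures at 0 h, most mitochondrial and some cytosolic ribosomal protein genes were higher in MGE than in CTX. In WT, 54 of 76 mitochondrial genes were higher and 3 lower in MGE, with a median difference of 0.72, and 22 of 43 cytosolic genes were higher and 0 lower, with a median of 0.22. In KO, 51 mitochondrial genes were higher and 1 lower (median 0.56), and 13 cytosolic genes were higher and 0 lower (median 0.17). Of all genes, 64.2% were called in WT (34.7% higher, 29.5% lower) and 47.0% in KO (26.6% higher, 20.4% lower), with medians of 0.11 and 0.07. Read against these, the share of mitochondrial genes higher in MGE was well above the all-gene share in both genotypes. The share of cytosolic genes higher in MGE was above the all-gene share in WT and close to it in KO. With both directions counted, the share called was above the all-gene share for mitochondrial genes and below it for cytosolic genes, in WT and in KO. Of the 100 cytosolic probe sets with several symbols, 48 were higher and 2 lower in WT and 53 higher and 1 lower in KO. Of all 587 probe sets with several symbols, 228 were higher and 150 lower in WT and 212 higher and 110 lower in KO. The WT and KO comparisons share no arrays: 49 higher mitochondrial genes (90.7% of those in WT, 96.1% of those in KO) and 13 cytosolic genes (59.1% and 100%) were common to both, and over all genes the shares were 70.4% and 92.0%. These differences set cultures of different cell makeup side by side: the 11 inhibitory and 9 excitatory marker levels given above separate the same arrays without overlap, and 1 and 3 of 7 astrocyte, 2 and 2 of 5 oligodendrocyte, 3 and 2 of 6 microglial, 1 and 1 of 6 vascular and 3 and 3 of 8 progenitor or cycling markers were higher in MGE in WT and KO, while 2 and 1 of the progenitor or cycling markers were lower. Their part in the result was not tested.

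**Figure D5:**
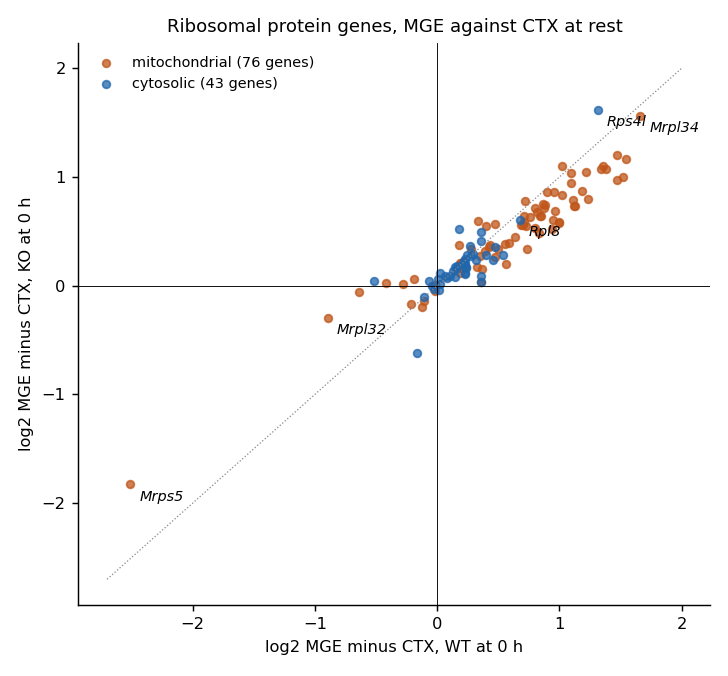
Log2 difference between MGE and CTX cultures at 0 h in WT (horizontal axis) and KO (vertical axis) for 76 mitochondrial (orange) and 43 cytosolic (blue) ribosomal protein genes, each from 2 arrays against 2, with the line of equal values dotted. Most points lie above 0 on both axes, with medians of 0.72 and 0.56 for mitochondrial and 0.22 and 0.17 for cytosolic genes, and Mrps5 lies apart at -2.51 and -1.83.

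The cytosolic counts at rest were sensitive to single arrays, since most differences were small. In WT the count was 8 without the second CTX array and 11 without the second MGE array. In KO it was 4 without the second CTX array, and 8 and 7 without the first and second MGE array. The mitochondrial count stayed between 47 and 60 in WT, and in KO it was 32 without the first MGE array and 32 without the second CTX array.

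Rpl8, a large subunit protein beside the catalytic centre, had the largest difference among called Rpl genes. It read 13.49 and 13.61 in MGE WT and 13.46 and 13.44 in MGE KO at 0 h, against 12.93 and 12.81 in CTX WT and 12.90 and 12.79 in CTX KO. The cell types did not overlap, and the difference was 0.68 in WT and 0.60 in KO (SE 0.08; adjusted p 1.5e-05 and 6.9e-05 by limma). Rps4l was higher in MGE by 1.31 and 1.61 (SE 0.12; adjusted p 7.4e-07 and 1.3e-07), and Rps9, a small subunit protein, by 0.47 and 0.36 (SE 0.09). Rpl22l1 was higher by 0.36 and 0.50 and Rpl13a by 0.23 and 0.21. Rps27 was higher by 0.40 in WT and read 0.28, not called, in KO.

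Mrpl34 had the largest difference among mitochondrial genes that were higher in MGE. Its log2 intensity was 12.51 and 12.56 in MGE WT and 12.43 and 12.39 in MGE KO, against 10.94 and 10.81 in CTX WT and 10.95 and 10.74 in CTX KO, a difference of 1.66 and 1.57 (SE 0.12; adjusted p 9.4e-08 and 2.0e-07 by limma). Mrpl4 was higher in MGE by 1.54 and 1.17, Mrps34 by 1.47 and 0.97 and Mrps25 by 1.34 and 1.07. Mrpl32 and Mrpl50 were lower in MGE WT, with differences of -0.90 and -0.64; in KO they read -0.30 and -0.06 and were not called. Gadd45gip1, a large subunit protein with another kind of symbol, was higher by 1.55 and 1.19. Of the 27 respiratory chain genes, 20 were higher and 1 lower in WT and 20 higher and 0 lower in KO, with medians of 0.43 and 0.46. Of all genes, 34.7% were higher and 29.5% lower in WT, and 26.6% and 20.4% in KO. Cyc1, cytochrome c1, was higher by 1.15 and 1.03 and Uqcrc1, a core subunit of the same complex, by 1.21 and 0.86. Of the regulators, Myc was lower in MGE, with differences of -5.11 and -4.14, Mycn likewise with -3.84 and -2.68, and Ppargc1b, a coactivator of mitochondrial genes, was higher by 1.84 and 1.94.

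Mrps5 was lower in MGE on its brightest probe set and not on most of the others. That probe set read 7.99 and 7.62 in MGE WT and 8.40 and 8.71 in MGE KO, against 10.31 and 10.31 in CTX WT and 10.32 and 10.45 in CTX KO, a difference of -2.51 and -1.83 (SE 0.18). Its other 4 probe sets differed by 1.23, 0.44, 0.26 and 0.03 in WT and by 1.25, 0.45, -0.01 and 0.48 in KO. The mean over all its probe sets read 0.07 in KO. Rps20, Mrpl17 and Mrpl57 also had a dimmer probe set on which MGE was lower, at -2.54, -1.57 and -2.15 in WT, and for Rps6, higher in MGE WT by 0.46, the mean over probe sets was -0.12. These genes, apart from Mrps5 and Rps6, are named because their probe sets disagreed. They were not the only ones. Of 116 other probe sets of 58 members, 87 in WT and 86 in KO had the same sign as the probe set used.

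No ribosomal protein gene passed the test between KO and WT cultures. In the 6 comparisons of KO with WT, at 0, 1 and 6 h in each cell type, 0 of 119 tested genes were called, beside a background of 0.00%, 0.0242% and 0.0323% in MGE and 0.00%, 0.00808% and 0.0485% in CTX. At an unadjusted p under 0.05, 19, 1 and 0 mitochondrial genes passed in MGE and 0, 0 and 3 in CTX, and 0, 0 and 0 cytosolic genes in MGE and 1, 1 and 1 in CTX. The mitochondrial medians were -0.18, -0.14 and -0.16 in MGE and -0.05, -0.08 and -0.08 in CTX, with 61, 66 and 65 of 76 values below 0 in MGE and 57, 66 and 58 in CTX. Of all 12378 tested genes, 6329, 6424 and 6718 were below 0 in MGE and 6934, 7401 and 6772 in CTX. The cytosolic medians were between -0.03 and -0.01. The half-width of the 95% interval of a mitochondrial gene was 0.32 in the median, and the precision differed between genes. Without the first MGE WT array at 0 h, 26 mitochondrial genes (21 lower and 5 higher in KO) and 3 cytosolic genes were called in MGE at 0 h. That array and the second of its group differed by -0.23 in the mitochondrial median, and 1507 genes lay over 2-fold apart between them. The share of all genes called without that array is not given here, so the calls in that fit have no background beside them. Without the first CTX WT array at 6 h, 1 mitochondrial gene was called.

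The difference of the 6 h response between KO and WT passed the test for 0 of the 119 genes in either cell type, with a background of 0.00% in MGE and 0.00808% in CTX and with 0 and 1 genes at an unadjusted p under 0.05. Intervals of the difference had a half-width of 0.45 for mitochondrial and 0.25 for cytosolic genes in the median. The mitochondrial median of the KO minus WT difference was 0.04 in MGE and -0.04 in CTX.

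Between cell types the 6 h response differed for a few mitochondrial genes. In WT, Mrps5 (MGE minus CTX 0.88, SE 0.26), Mrps9 (0.65, SE 0.19) and Mrpl39 (-0.62, SE 0.18) were called, with adjusted p of 0.045, 0.041 and 0.046 by limma, beside a background of 10.9% (6.99% higher, 3.92% lower). In KO, Mrpl51 (0.74, SE 0.18) and Mrps23 (0.76, SE 0.21) were called, with adjusted p of 0.019 and 0.040, beside 7.34% (4.46% higher, 2.88% lower). These 3 of 76 and 2 of 76 genes were a smaller share than in the background. In WT, 1 called member had another probe set with the opposite sign. Mrps5 was read on its brightest probe set, which most of its others did not follow at rest. No cytosolic gene was called in either, and 1 and 3 passed at an unadjusted p under 0.05. The mitochondrial count ranged from 0 to 8 in WT and from 0 to 7 in KO as single arrays were left out: in WT it was 0 without either MGE array at 6 h or the second MGE array at 0 h, 1 without either CTX array at 0 h or the second CTX array at 6 h, and 8 without the first MGE array at 0 h or the first CTX array at 6 h. In KO it was 7 without the first CTX array at 6 h and 0 or 1 without any other single array of the 4 groups. The cytosolic count was 2 in WT without the first CTX array at 6 h and 1 in KO without the first CTX array at 0 h.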

How the data were processed

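The authors deposited linear intensities for 45101 probe sets (6.61 to 29460). RMA is named in the submitters' processing notes, with no version. It equalizes the distribution of values across arrays, which would hide a change common to most genes. Joint or separate normalization of MGE and CTX is not given in the sources used here. Intensities were converted to log2. Gene names came from GEO's platform annotation; the brightest probe set stood for a gene, and genes that exceeded the median intensity on 2 or more arrays were tested (12378). limma 3.58.1 (R 4.3.3) fitted 12 group means to 24 arrays (12 residual degrees of freedom), with two-sided tests, Benjamini-Hochberg adjustment over all tested genes and a call at adjusted p under 0.05. SE is from that fit. The fit was tested on simulated data. Precision is limited by 2 arrays per group.

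Members, gene lists and tests were chosen with earlier results of these data known. Genes eligible to be named were, per comparison, up to 5 called in each direction among each of Rpl, Rps, Mrpl and Mrps without overlap of arrays, all where 5 or fewer were called, a fixed set of paralogs with Rpl13a, up to 4 called genes per list, and Npas4. A selection is given. Alternatives were a replicate block, no filter, cyclic loess, the mean over probe sets, no _x_at or _s_at probe sets, and leaving out each array. Promoters are from RefSeq (GRCm38.p6); motifs were searched with Python.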

Additional observations from a re-analysis of the deposited data

Results flagged for a closer look

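The 6 h response differed between MGE and CTX by limma's interaction term for 5 mitochondrial ribosomal protein genes, which is why they are set apart here. In WT the MGE minus CTX difference in the 6 h change was 0.88 for Mrps5, 0.65 for Mrps9 and -0.62 for Mrpl39. Mrps5 fell in CTX WT from 10.31 and 10.31 to 9.53 and 9.73 and went from 7.99 and 7.62 to 8.16 and 7.83 in MGE WT. These values are from its brightest probe set, on which MGE was lower at rest and on most of its others not. Mrps9 went from 10.61 and 10.30 to 10.15 and 9.97 in CTX WT, and from a mean of 10.79 to 11.04 in MGE WT. Mrpl39 went from 12.62 and 12.84 to 12.19 and 12.35 in MGE WT and from 11.96 and 11.73 to 12.10 and 11.91 in CTX WT, where its arrays overlapped. In KO the difference was 0.74 for Mrpl51 and 0.76 for Mrps23. Mrpl51 went from 12.71 and 12.52 to 11.81 and 11.47 in CTX KO and from 13.35 and 13.29 to 13.07 and 13.11 in MGE KO, and Mrps23 from 11.62 and 11.57 to 10.74 and 10.30 and from 11.83 and 11.69 to 11.41 and 11.49. Each of these calls was lost in 5 to 7 of the 8 fits that left out one of its arrays.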

How the results depend on the processing

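Leaving out single arrays moved the counts of called genes most, and 2 arrays per group limit every count. The share of all genes called in those fits is not given here. With single arrays left out, the mitochondrial count at 6 h ranged from 2 to 40 in MGE WT, 4 to 12 in MGE KO, 23 to 33 in CTX WT and 25 to 38 in CTX KO, and the cytosolic count from 0 to 4, 0 to 1, 2 to 4 and 1 to 2. At 1 h the mitochondrial count was 0 to 7 and the cytosolic 0 to 1 in MGE WT, and the cytosolic 0 to 1 in CTX WT and in CTX KO. At rest between cell types the cytosolic count was 8 to 21 in WT and 4 to 13 in KO and the mitochondrial 47 to 60 and 32 to 47. For KO against WT it was 0 to 26 mitochondrial and 0 to 3 cytosolic in MGE at 0 h and 0 to 1 mitochondrial in CTX at 6 h. For the MGE minus CTX difference of the 6 h response it was 0 to 8 mitochondrial and 0 to 2 cytosolic in WT, and 0 to 7 and 0 to 1 in KO. The repeat number was entered as a block within each cell type. The numbers are shared by only 2 arrays per group, and the deviations of the groups correlated at -0.23 to 0.86 in MGE (13 of 15 group pairs over 0.1), 0.11 to 0.71 in CTX (15 of 15 over 0.1) and -0.39 to 0.20 across cell types. The medians were 0.61 in MGE, 0.37 in CTX and -0.06 across cell types. In CTX, and in most group pairs of MGE, this is a hint of a shared repeat from the data. The labels do not say what a number stands for. The fit without the block is the one reported, and the block's values stand beside the 6 h counts it moved. With the replicate block the cytosolic count was 2 in MGE WT at 6 h, 4 for CTX KO at 6 h, and 2 in each cell type difference of the 6 h response (WT and KO). Of 344 results for single members, 338 kept their side of the threshold and 6 gained a call under the block. Without the filter 339 of 344 kept theirs, with cyclic loess 336, with the mean over probe sets 333, and without _x_at and _s_at probe sets 336 of 341. With the mean over probe sets the cytosolic count was 2 in CTX WT and 2 in CTX KO at 1 h, 5 and 6 at 6 h, and 1 in the WT cell type difference, and the mitochondrial count was 1 in MGE WT at 1 h and 7 (WT) and 5 (KO) in the cell type differences. Without _x_at and _s_at probe sets the cytosolic counts of CTX WT and KO were 2 and 2 after 1 h and 5 and 5 after 6 h, with 1 in the WT cell type difference. In that difference cyclic loess gave 1 cytosolic and 1 mitochondrial gene, and no filter gave 1 mitochondrial gene. Directions reversed for Mrpl38 without _x_at and _s_at probe sets (0.17 in MGE WT, 0.35 in MGE KO), for Mrps5 (0.0698, KO at rest) and Rps6 (-0.12, WT at rest) with the mean over probe sets, and, outside the members, for Eif4ebp2 (-0.15 in CTX WT, -0.0605 in CTX KO and 0.13 in the KO cell type difference), Mtor (0.0569, MGE KO at 6 h) and Eef1d (-0.0273, WT at rest) with that mean, and Mbp (0.59, CTX KO at 6 h) and Dkc1 (0.15 in WT and 0.26 in KO at rest) without _x_at and _s_at probe sets. These follow from which probe sets enter; the cause of the other shifts was not tested.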
